A study of Rattus norvegicus with 23 samples.

Results

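The genes described are 10 members of the disease-associated microglia programme: Spp1, Igf1, Clec7a, Lgals3, Lpl, Fabp5, Gpnmb, Cst7, Itgax and Cd9. They were chosen by name from that programme with their values in these samples already known, and all 10 were found among the 20301 genes of the deposited table. The values that led to the choice are the same ones described, so the differences of these genes between groups are given as a description with their errors. Calls of the members in a fit of all genes are counted only beside the share of all genes called, and they are no independent test.

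Disease-associated microglia are a state in which microglia lower part of their resting programme and raise genes for lipid uptake, lysosomal breakdown, phagocytosis and cell adhesion. Much of the state depends on the receptor TREM2 and its adaptor TYROBP. It was described around amyloid plaques and in demyelination and neurodegeneration, and a closely related set of genes, with Spp1, Gpnmb, Lpl, Igf1, Clec7a and Itgax among them, marks amoeboid microglia of the early postnatal white matter, where cells engulf newly formed oligodendrocytes. Microglia of the early postnatal brain can therefore have these genes active without injury. No unoperated pups were sampled here.

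Microglia were isolated from Wistar rats operated on postnatal day 7, 24 h after the operation, by magnetic sorting on CD11b/c, and their RNA was sequenced. The 6 Sham samples came from pups with a neck incision only, for which no injection is described. The 5 LPS samples came from pups that were given 0.1 mg/kg lipopolysaccharide (LPS) of Escherichia coli 4 h before the same sham operation. The 6 NaCl/HI samples came from pups injected with saline and then subjected to hypoxia-ischemia (HI), that is, ligation of the left common carotid artery and 50 min in 8% oxygen, and the 6 LPS/HI samples from pups given LPS 4 h before ligation and the same hypoxia. Pups of both sexes were used throughout. Each Sham or LPS sample was the entire brain of 1 pup, while each HI sample pooled the ipsilateral hemispheres of 2 pups, so that HI, the hemisphere taken and the pooling cannot be told apart. CD11b/c beads also take monocytes, macrophages and neutrophils. The table holds no counts, so a change in the share of cells with a gene active and a change of RNA per cell cannot be told apart, and the depth of each library is unknown.

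The deposited values are log2 values after the regularised log transformation and the removal of 3 surrogate variables, which lowers the spread within groups. They are not scaled by gene length, and levels are compared here between samples and not between genes. Of the 15 homeostatic microglial markers, Csf1r, Cx3cr1 and P2ry12 had mean log2 values of 16.46, 15.55 and 13.92 over all samples, while Olfml3 and Crybb1 lay at 7.29 and 6.38 and Siglech at -1.05. A sample of the LPS/HI group, replicate 2, lay unusually close to its group mean, with a mean squared deviation of 0.0024 against 0.0083 to 0.0268 in the other 22 samples, and it kept 0.065 of its own deviation after the surrogate variables had been removed. Such a sample adds little to the spread within LPS/HI that enters the errors given here. Titles number the samples within a group as biological replicates. By library number, replicates 1 to 3 of every group are libraries 1 to 12 and the higher replicate numbers are libraries 13 to 23.

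The highest levels of 9 of the 10 genes were found in the NaCl/HI group. Against Sham, all 10 genes had a higher mean in NaCl/HI, with a median difference of 0.69 log2 units, and Spp1, Lgals3 and Gpnmb differed by more than 1 log2 unit. In the LPS/HI group the median difference from Sham was 0.40. It was nearer to 0 than in NaCl/HI for 8 of the 10 genes, slightly larger for Itgax, and of the opposite sign for Igf1 (-0.16, SE 0.07). After LPS alone Igf1, Lpl and Cd9 had lower values than in every Sham sample, where 13.9% of all genes did not overlap in either direction, and the means of Spp1, Lgals3, Itgax and Gpnmb were higher by 1.13, 0.34, 0.28 and 0.23. A single sample, NaCl/HI replicate 4, did not share the pattern of its group and lay within the range of the Sham samples for all 10 genes.

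**Figure D1:**
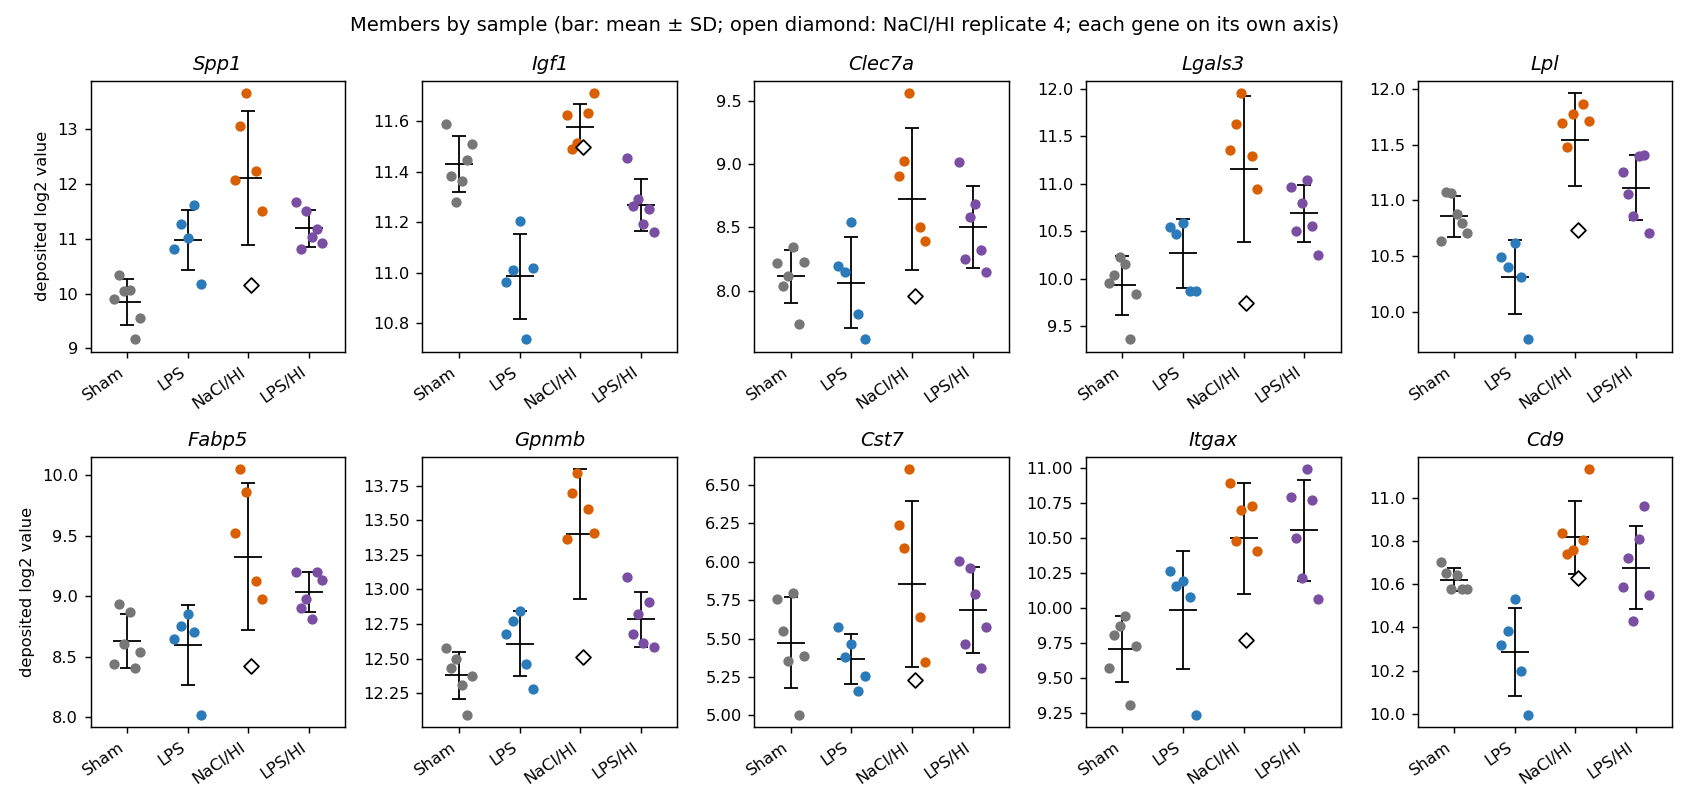
Deposited log2 values (y axis, own scale for each gene) of the 10 genes in each sample, by group; points are samples, bars the mean ± SD, and the open diamond is NaCl/HI replicate 4. That sample lies within the Sham range for all 10 genes and below the other 5 NaCl/HI samples for 9 of them.

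Of the 2 secreted factors, Spp1 encodes osteopontin, a matrix protein and cytokine that binds integrins and CD44. Its log2 values in Sham ran from 9.17 to 10.33 with a median of 9.98. In LPS they were 10.81, 11.28, 11.02, 11.62 and 10.17 in replicates 1 to 5. In NaCl/HI they were 12.08, 13.05, 13.65, 10.15, 12.24 and 11.50 in replicates 1 to 6. Apart from replicate 4, every NaCl/HI sample thus lay at least 1.17 log2 units above the highest Sham sample, and replicate 4 lay below it. In LPS/HI the values ran from 10.81 to 11.67 with a median of 11.11, above every Sham sample. The group means were 9.85 ± 0.42 (SD, n = 6) in Sham, 10.98 ± 0.54 (n = 5) in LPS, 11.19 ± 0.34 (n = 6) in LPS/HI and 12.11 ± 1.22 (n = 6) in NaCl/HI. The step from LPS to LPS/HI was smaller than the spread within those groups, and the others were larger. Spp1 differed from Sham by 2.27 (SE 0.40) in NaCl/HI, which is 4.81-fold on this scale, and by 1.34 (SE 0.40) in LPS/HI. Without LPS pretreatment HI was accompanied by the difference of 2.27, and with it, LPS/HI against LPS, by 0.21 (SE 0.42, 95% interval -0.65 to 1.07). The change of the HI difference with LPS was -2.06 (SE 0.57).

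Igf1 encodes insulin-like growth factor 1, a trophic factor that microglia release during early myelination. Its values ran from 11.28 to 11.59 (median 11.41) in Sham and from 11.49 to 11.71 (median 11.57) in NaCl/HI. In LPS they were 10.96, 11.01, 11.20, 10.74 and 11.02, all below the lowest Sham sample. In LPS/HI they ran from 11.16 to 11.45 (median 11.26), below every NaCl/HI sample. The order of the means, LPS, LPS/HI, Sham and NaCl/HI, thus differed from that of Spp1, and each step exceeded the pooled SD although each pair of neighbours overlapped. The difference from Sham was 0.15 (SE 0.07) in NaCl/HI and -0.44 (SE 0.07) in LPS, and LPS/HI lay above LPS by 0.28 (SE 0.07).

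Clec7a encodes dectin-1, a receptor for beta-glucans that signals through SYK and CARD9, and Lgals3 encodes galectin-3, a beta-galactoside-binding lectin that marks damaged endolysosomes and is released by activated microglia. For Clec7a the Sham values ran from 7.74 to 8.34 (median 8.17), the LPS values from 7.62 to 8.54, and the LPS/HI values from 8.15 to 9.02 (median 8.45). The NaCl/HI values were 8.91, 9.03, 9.56, 7.96, 8.50 and 8.39. The 5 NaCl/HI samples other than replicate 4 lay above every Sham sample, 2 of them by only 0.05 and 0.16 log2 units. The difference of NaCl/HI from Sham was 0.61 (SE 0.21), and that of LPS from Sham was -0.05 (SE 0.22), which is smaller than the spread. For Lgals3 the values ran from 9.36 to 10.23 (median 9.99) in Sham, and they were 10.54, 10.47, 10.58, 9.87 and 9.87 in LPS. In NaCl/HI they were 11.36, 11.63, 11.95, 9.75, 11.29 and 10.95, and in LPS/HI they ran from 10.25 to 11.04 (median 10.68). The LPS samples fell into 3 above every Sham sample and 2 within the Sham range. Every LPS/HI sample lay above every Sham sample, the lowest by 0.03 log2 units. Lgals3 differed from Sham by 1.23 (SE 0.26, 2.34-fold) in NaCl/HI and by 0.76 (SE 0.26) in LPS/HI.

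Lpl encodes lipoprotein lipase, which frees fatty acids from lipoproteins, and Fabp5 encodes a carrier of fatty acids inside the cell. Lpl ran from 10.64 to 11.08 (median 10.84) in Sham. Its LPS values of 10.50, 10.40, 10.62, 10.31 and 9.75 all lay below the lowest Sham sample. In NaCl/HI they were 11.70, 11.48, 11.78, 10.73, 11.86 and 11.72, so that 5 samples were tightly grouped and replicate 4 lay 6.76 of their SDs below their mean. In LPS/HI they ran from 10.70 to 11.41 (median 11.16), above every LPS sample. HI was accompanied by similar differences without and with LPS, 0.69 (SE 0.17) for NaCl/HI against Sham and 0.80 (SE 0.18) for LPS/HI against LPS. The change of the HI difference with LPS was 0.11 (SE 0.25, 95% interval -0.41 to 0.64). Fabp5 ran from 8.40 to 8.94 (median 8.57) in Sham and from 8.02 to 8.86 (median 8.71) in LPS, overlapping Sham. In NaCl/HI its values were 9.53, 10.05, 9.87, 8.42, 9.12 and 8.98. In LPS/HI they ran from 8.81 to 9.20 (median 9.05). The first 3 NaCl/HI replicates lay above every LPS/HI sample, while the difference between the means of NaCl/HI and LPS/HI was smaller than the pooled SD. NaCl/HI differed from Sham by 0.70 (SE 0.21) and LPS/HI from LPS by 0.44 (SE 0.22).

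Gpnmb encodes a transmembrane glycoprotein of lysosomes and phagosomes, and Cst7 encodes cystatin F, an inhibitor of lysosomal cysteine cathepsins that acts on the protease activator cathepsin C. Gpnmb ran from 12.09 to 12.58 (median 12.40) in Sham. Its NaCl/HI values were 13.37, 13.70, 13.84, 12.51, 13.58 and 13.40. These values leave a gap of 0.79 log2 units between the highest Sham sample and the 5 NaCl/HI samples other than replicate 4. LPS ran from 12.28 to 12.84 and LPS/HI from 12.58 to 13.09 (median 12.75), and the 2 groups differed by 0.18 (SE 0.17), less than their spread. Gpnmb differed from Sham by 1.02 (SE 0.16, 2.03-fold) in NaCl/HI and by 0.40 (SE 0.16) in LPS/HI, and its change of the HI difference with LPS was -0.84 (SE 0.24). Cst7 was the member whose groups differed least in relation to their spread: none of the 3 steps in the order LPS, Sham, LPS/HI and NaCl/HI exceeded the pooled SD. Its NaCl/HI values of 6.24, 6.09, 6.60, 5.23, 5.64 and 5.35 covered a wide range, and Sham ran from 5.00 to 5.80 (median 5.47). The difference of NaCl/HI from Sham was 0.38 (SE 0.20, 95% interval -0.03 to 0.79).

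Itgax encodes CD11c, the alpha subunit of an integrin that pairs with the beta subunit ITGB2, and Cd9 encodes a tetraspanin of the cell surface and of extracellular vesicles. Of the 10 genes, Itgax alone had its highest mean in the LPS/HI group. It exceeded NaCl/HI by 0.06 (SE 0.20), a difference far below the spread and of the opposite sign, -0.09, without NaCl/HI replicate 4. Its values ran from 9.31 to 9.94 (median 9.77) in Sham, were 10.26, 10.16, 10.19, 10.08 and 9.24 in LPS, and ran from 10.06 to 10.99 (median 10.63) in LPS/HI. In NaCl/HI they were 10.89, 10.48, 10.70, 9.77, 10.73 and 10.41. All LPS/HI samples and 4 of the 5 LPS samples lay above every Sham sample, and LPS replicate 5 lay below every Sham sample. Itgax differed from Sham by 0.79 (SE 0.20) in NaCl/HI and by 0.85 (SE 0.20, 1.80-fold) in LPS/HI. Cd9 varied little in Sham, from 10.58 to 10.70, and its LPS values of 10.32, 10.38, 10.53, 10.20 and 9.995 were all lower. In NaCl/HI it ran from 10.63 to 11.13 (median 10.78) and in LPS/HI from 10.43 to 10.96 (median 10.65), both overlapping Sham. The difference from Sham was -0.34 (SE 0.10) in LPS and 0.20 (SE 0.09) in NaCl/HI, and LPS/HI lay above LPS by 0.39 (SE 0.10).

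**Figure D2:**
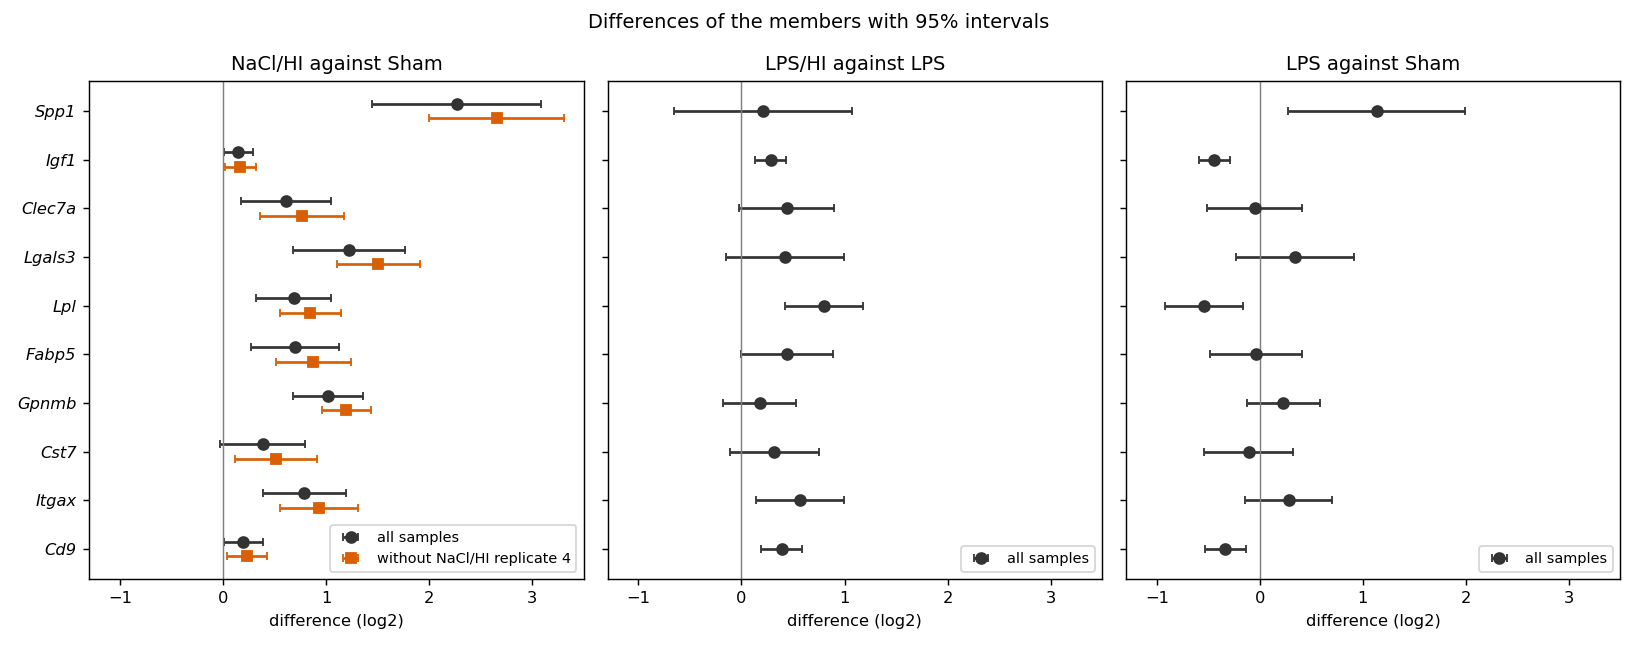
Differences (x axis, log2) of the 10 genes with 95% intervals from the limma fit of all 23 samples (circles), and for NaCl/HI against Sham also without NaCl/HI replicate 4 (squares). All 10 points lie above 0 in the comparisons of NaCl/HI with Sham and of LPS/HI with LPS, while the whole intervals of Igf1, Lpl and Cd9 lie below 0 in LPS against Sham.

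Counted over the whole table with limma at an adjusted p under 0.05, calls were few for HI without LPS. In NaCl/HI against Sham 0.00985% of all genes were called, and Gpnmb was the only member among them. It was also the single gene in the table, 0.00493%, that passed together with a fold above 2. Between LPS/HI and LPS 1.94% of genes were called, with Igf1, Lpl and Cd9 among the higher ones. In LPS against Sham 17.8% of genes were called, 10.2% higher and 7.56% lower, and Igf1, Lpl and Cd9 were among the lower ones. In LPS/HI against Sham 8.77% were called, 5.30% higher and 3.48% lower, with Spp1 and Itgax among the higher ones. LPS/HI against NaCl/HI called 0.202% and the interaction of LPS with HI 1.08% of genes, and no member was called in either. Because the members were chosen on these contrasts, nothing is read from their shares.

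The overlap of the samples was counted in the same way. No member was free of overlap between NaCl/HI and Sham, where 1.01% of all genes were, and this count turned on replicate 4. Between LPS and Sham 3 members did not overlap, all lower in LPS, beside 13.9% of all genes. Between LPS/HI and Sham 4 members did not overlap (Spp1, Gpnmb, Lgals3 and Itgax, all higher) beside 6.37% of all genes. For Gpnmb the groups all but touched, with the lowest LPS/HI sample at 12.584 and the highest Sham sample at 12.581. Between LPS/HI and LPS only Lpl did not overlap (4.17% of all genes), and between LPS/HI and NaCl/HI only Igf1 (1.33%).

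NaCl/HI replicate 4 decided much of what could be said of HI without LPS. Averaged over the 10 genes it lay 1.00 log2 unit below the mean of the other 5 NaCl/HI samples and 0.03 below the Sham mean. Its root mean square distance over the members was 0.173 to the Sham mean, 0.610 to the LPS/HI mean and 1.18 to the mean of the other NaCl/HI samples. For 9 members, all but Igf1, it was the lowest of the 6 samples, while it was the lowest for 21.8% and the highest for 23.3% of all genes, and it lay within the Sham range for 69.0% of all genes against 10 of 10 members. In SDs of the other 5 samples it lay furthest down for Lpl (-6.76), Gpnmb (-5.38), Lgals3 (-4.48) and Itgax (-4.44). The titles and library descriptions give no reason to set it apart, and it was kept.

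Replicate 4 lay below the mean of the other NaCl/HI samples for every member. Leaving it out therefore had to raise every difference of NaCl/HI from Sham, and their median went from 0.69 to 0.86. The counts that follow describe that choice of sample. Spp1 then differed by 2.66 (SE 0.31, 6.31-fold), Lgals3 by 1.51 (SE 0.19, 2.84-fold) and Gpnmb by 1.20 (SE 0.12, 2.29-fold). The samples of 8 members no longer overlapped with Sham, all but Igf1 and Cst7, beside 5.90% of all genes. Called genes rose from 0.00985% to 2.74% of the table and called members from 1 to 7, with Spp1, Lpl, Fabp5, Clec7a, Lgals3 and Itgax added. With a fold above 2 as well, 0.0690% of the table was called. LPS/HI against NaCl/HI then called 0.0936% of the table with Gpnmb among them, 0.79 lower in LPS/HI (SE 0.12), and Igf1, Gpnmb and Lpl did not overlap between those groups, beside 1.91% of all genes. The interaction called 2.43% of the table, with Spp1 (-2.45, SE 0.44), Lgals3 (-1.09, SE 0.27) and Gpnmb (-1.02, SE 0.16) among them. Each other sample was left out in turn as well, and called members in NaCl/HI against Sham then numbered between 0 and 2 in these 22 fits, beside 0 to 0.0591% of all genes. Over all 23 fits with 1 sample left out, Gpnmb was called in 6, and in 17 no member was. In LPS/HI against LPS, Lpl was called in 16 of them, Cd9 in 11 and Igf1 in 8. In LPS against Sham, Igf1 was called in 23, Cd9 in 21 and Lpl in 13, and in LPS/HI against Sham, Itgax in 23 and Spp1 in 14.

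**Figure D3:**
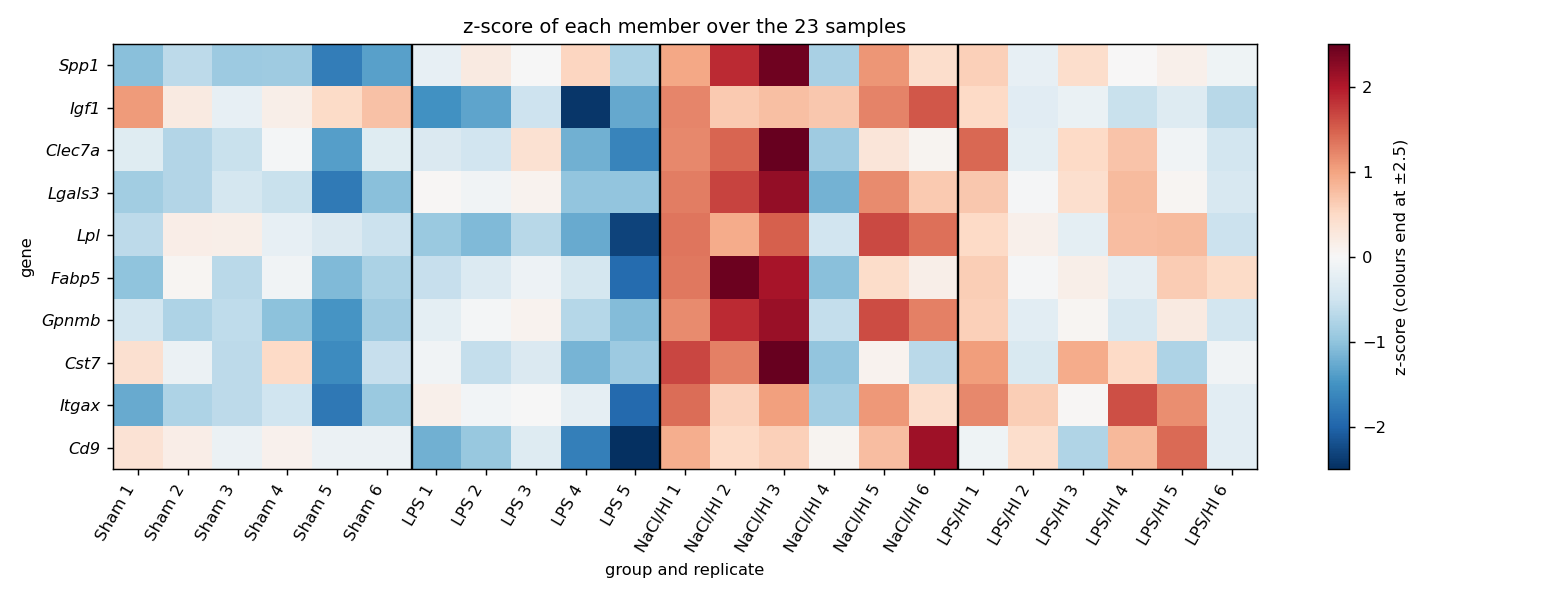
Each cell is the z-score of a gene (rows) over the 23 samples (columns, by group and replicate), with colours ending at 2.5 SDs on either side of the mean of the gene. NaCl/HI replicates 1, 2, 3, 5 and 6 hold ranks 1 to 5 of the mean z-score of the 10 genes, and replicate 4 holds rank 20 of 23.

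By the mean of the 10 z-scores, the 5 highest samples were NaCl/HI replicates 3 (1.79), 2 (1.33), 1 (1.25), 5 (0.95) and 6 (0.74), followed by LPS/HI replicate 1 (0.71). NaCl/HI replicate 4 stood at -0.61. The 3 lowest were LPS replicates 5 (-1.54) and 4 (-0.96) and Sham replicate 5 (-1.08), all 3 from groups without HI.

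Within libraries 1 to 12, NaCl/HI lay above Sham for 10 of 10 members with a median difference of 0.99, and within libraries 13 to 23 for 10 of 10 members with a median of 0.45, or 0.68 without replicate 4. For Gpnmb the difference was 1.13 in libraries 1 to 12 and 1.23 in the others without replicate 4. For Cst7 it was 0.76 in the former and 0.10 in the latter without replicate 4, and for Fabp5 it was 1.16 and 0.45. The 3 NaCl/HI samples of libraries 1 to 12 lay above replicates 5 and 6 for Cst7, Fabp5, Clec7a and Lgals3, and for Igf1 they lay below them. The difference of LPS/HI from NaCl/HI had a median of -0.57 in libraries 1 to 12, where no member was positive. In libraries 13 to 23 it had a median of -0.06, positive for 4 of 10, and without replicate 4 of -0.33, positive for 2 of 10. For LPS against Sham the median was 0.13 in libraries 1 to 12 and -0.21 in libraries 13 to 23, so the direction over the 10 genes was not the same, but Igf1, Lpl and Cd9 were lower in both. Whether anything else differed between these library numbers is not given in the sources used here, and its part in these differences was not tested.

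**Figure D4:**
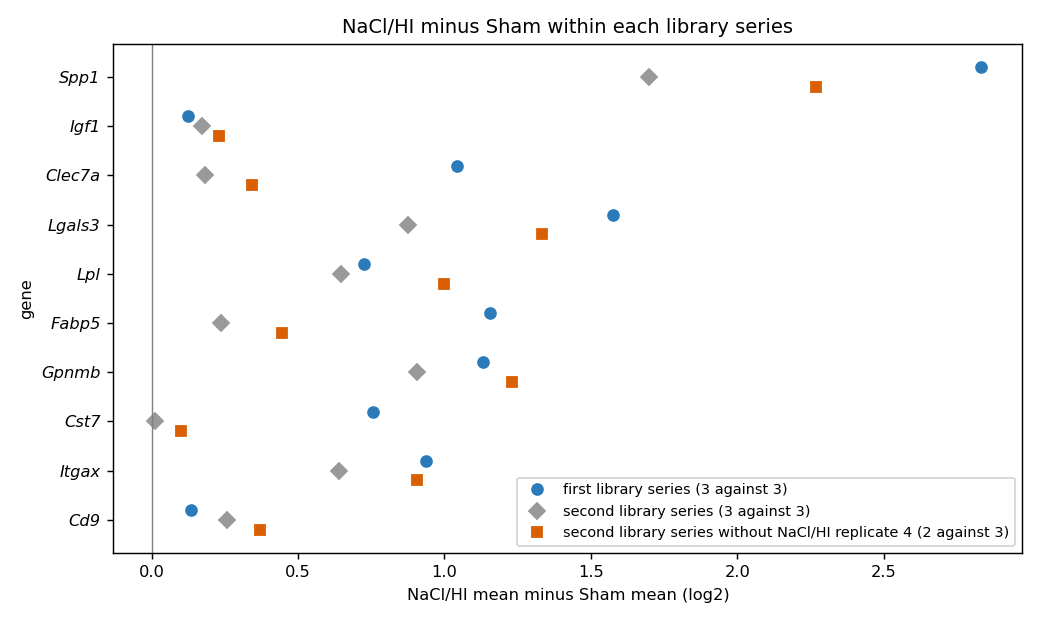
NaCl/HI mean minus Sham mean (x axis, log2) of each gene within libraries 1 to 12 (circles), within libraries 13 to 23 (diamonds) and within libraries 13 to 23 without NaCl/HI replicate 4 (squares). All 10 genes lie above 0 in each, and Cst7, Fabp5 and Clec7a show the widest gap between the circles and the squares.

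The members moved together across samples to different degrees. Over the 23 samples the 45 pairs of members had a median Pearson correlation of 0.73, from 0.12 to 0.93. These samples share groups, and after each group was centred on its mean the median was 0.59, and 0.44 without NaCl/HI replicate 4. Igf1 and Cd9 stood apart, with medians of 0.36 and 0.50 towards the other 8 genes against 0.75 among those 8. These correlations are across samples that also share libraries and the removal of surrogate variables, and they describe these samples only.

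Outside the members, the genes whose values most resembled the mean z-score of the 10 over the 23 samples were Kcnn4 (r = 0.97), a calcium-activated potassium channel of microglia and other immune cells, Anxa5 (r = 0.95), a binder of phosphatidylserine, Hk3 (r = 0.94), a hexokinase of myeloid cells, Pak1ip1 (r = 0.94) and Stra6l (r = 0.92). Kcnn4 had a mean of 6.61 in Sham and in LPS 6.60, 7.21 in LPS/HI and 7.83 in NaCl/HI, with replicate 4 at 6.63. Hk3 had means of 6.38, 6.69, 7.51 and 7.97 in the same order, with replicate 4 at 6.24. The genes of the most opposite pattern were Homez (r = -0.85), Usp47 (r = -0.84) and Sdr39u1 (r = -0.83). For Spp1 alone the closest were Anxa4, Tmem14c and Fam20c, at r = 0.91, 0.91 and 0.90.

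The 300-base promoters of 7 members, 250 bases before and 50 after the transcript start that the RefSeq promoter table uses, were read on the GRCr8 assembly, which is not the mRatBN7.2 build of the deposited table. That start is the outer end of the RefSeq gene record for Gpnmb, but it lies 891 bases inside the record for Spp1, 2924 for Igf1 and 9960 for Itgax, and 59 to 126 for the other 3. They were searched on both strands for 4 motifs: CACGTG, the E-box bound by MITF and TFEB; TCACATG, the form of that box known from MITF targets; TGANTCA, the AP-1 site; and GAGGAA, the core of PU.1 sites. TCACATG was added after the promoters had been read. The promoters of Gpnmb, the member called in NaCl/HI against Sham with all samples, Itgax, which was high in both HI groups, and Spp1, which had the largest difference, are shown with matched letters in capitals.
Gpnmb promoter (chr4:79340878-79341177, plus strand): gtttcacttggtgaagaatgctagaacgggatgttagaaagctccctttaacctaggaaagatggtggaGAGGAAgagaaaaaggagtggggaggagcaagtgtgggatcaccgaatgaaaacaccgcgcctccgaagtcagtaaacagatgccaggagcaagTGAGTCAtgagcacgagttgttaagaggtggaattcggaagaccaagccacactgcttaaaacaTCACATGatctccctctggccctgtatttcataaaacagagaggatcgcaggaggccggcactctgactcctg
Itgax promoter (chr1:192149799-192150098, plus strand): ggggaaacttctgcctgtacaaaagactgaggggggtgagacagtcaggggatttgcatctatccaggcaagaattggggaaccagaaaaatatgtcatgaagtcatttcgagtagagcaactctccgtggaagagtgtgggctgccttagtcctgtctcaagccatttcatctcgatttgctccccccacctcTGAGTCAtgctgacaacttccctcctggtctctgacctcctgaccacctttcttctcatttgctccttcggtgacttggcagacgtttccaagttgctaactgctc
Spp1 promoter (chr14:5619755-5620054, minus strand): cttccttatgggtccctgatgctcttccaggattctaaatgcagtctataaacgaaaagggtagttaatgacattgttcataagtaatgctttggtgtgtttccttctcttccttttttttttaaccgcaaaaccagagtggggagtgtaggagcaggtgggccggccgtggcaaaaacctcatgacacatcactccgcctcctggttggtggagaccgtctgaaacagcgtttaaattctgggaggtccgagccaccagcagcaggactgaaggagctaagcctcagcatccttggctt

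In Gpnmb the capitals mark GAGGAA at -181 to -176 from that transcript start, TGAGTCA at -87 to -81 and TCACATG at -23 to -17. In Itgax they mark TGAGTCA at -56 to -50. None of the 4 motifs was found in the Spp1 window, which says only that these letters are not in it. Among all 33469 promoters of this length, TGANTCA occurred in 7.33%, GAGGAA in 27.6%, CACGTG in 6.42% and TCACATG in 3.89%. Of the 7 members TGANTCA occurred in 3 (Gpnmb, Itgax and Cst7), GAGGAA in 2 (Gpnmb and Cd9), TCACATG in 1 and CACGTG in none. A match of letters describes the sequence and is no evidence of binding in these cells. Lgals3, Lpl and Fabp5 had no entry.

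Beyond the 10 members, 41 other genes of the disease-associated programme were followed in the same limma fit. In NaCl/HI against Sham 33 of the 41 had a higher mean, with a median difference of 0.14 beside -0.01 over all genes. None passed an adjusted p of 0.05 with limma, while 18 had an unadjusted limma p under 0.05, as 14.8% of all genes did. The exact Wilcoxon rank-sum test called 0 of all 20301 genes in this comparison, so it says nothing of these 41. Without replicate 4, 11 of the 41 passed beside 2.74% of all genes, all higher, led by Lilrb4 (0.76, SE 0.17), an inhibitory receptor, Fam20c (0.72, SE 0.14), a kinase of secreted proteins such as osteopontin, Ccl6 (0.68, SE 0.12), a chemokine, and Capg (0.67, SE 0.09), which caps actin filaments. Trem2 and Tyrobp, named here for their role after their values had been seen, differed by 0.06 (SE 0.06) and 0.05 (SE 0.05) in NaCl/HI against Sham, with adjusted p of 0.65 and 0.71 in limma.

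Between LPS and Sham 10 of these 41 genes were higher and 4 lower by limma, beside 10.2% and 7.56% of all genes. The largest rises by limma were those of Ctsz, a lysosomal cathepsin (0.74, SE 0.07, adjusted p = 1.11e-06), Ccl6 (0.61, SE 0.15, adjusted p = 0.00598), Cox6a2 (0.50, SE 0.14, adjusted p = 0.0168) and Capg (0.42, SE 0.13, adjusted p = 0.0239). The 4 that fell were Csf1, a growth factor of microglia (-0.50, SE 0.12), Colec12, a scavenger receptor (-0.37, SE 0.10), Ankh, a pyrophosphate transporter (-0.36, SE 0.05), and Ctsl, a cathepsin (-0.22, SE 0.06). In LPS/HI against Sham 11 passed beside 8.77% of all genes, 10 of them higher, with Ccl6 (0.81, SE 0.14), Cox6a2 (0.73, SE 0.13), Plin2, a coat protein of lipid droplets (0.50, SE 0.10), and Ctsz (0.50, SE 0.07) in front. Ankh alone was lower, by -0.17 (SE 0.05). Gusb alone passed between LPS/HI and LPS in limma, lower in LPS/HI (-0.27, SE 0.07, adjusted p = 0.0446). LPS/HI against NaCl/HI gave none by limma, with 9 at an unadjusted limma p under 0.05 beside 10.6% of all genes. The exact Wilcoxon test called 0 of all genes in that comparison, so it says nothing of this list. Ctsz alone passed for the interaction in limma, -0.61 (SE 0.10, adjusted p = 0.0121). Among these results, leaving out single samples raised the adjusted p above 0.05 for Cox6a2 and Capg in LPS against Sham in 1 and 6 of the 23 fits, for Ankh in LPS/HI against Sham in 5 and for Gusb in 13, where it reached 0.131 over all alternatives. The mean of Ctsz was 13.46 ± 0.04 in Sham, 14.20 ± 0.17 in LPS, 13.84 ± 0.13 in NaCl/HI and 13.96 ± 0.10 in LPS/HI (SD, n = 6, 5, 6 and 6), so that Ctsz was higher in NaCl/HI than in Sham and lower in LPS/HI than in LPS.

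**Figure D5:**
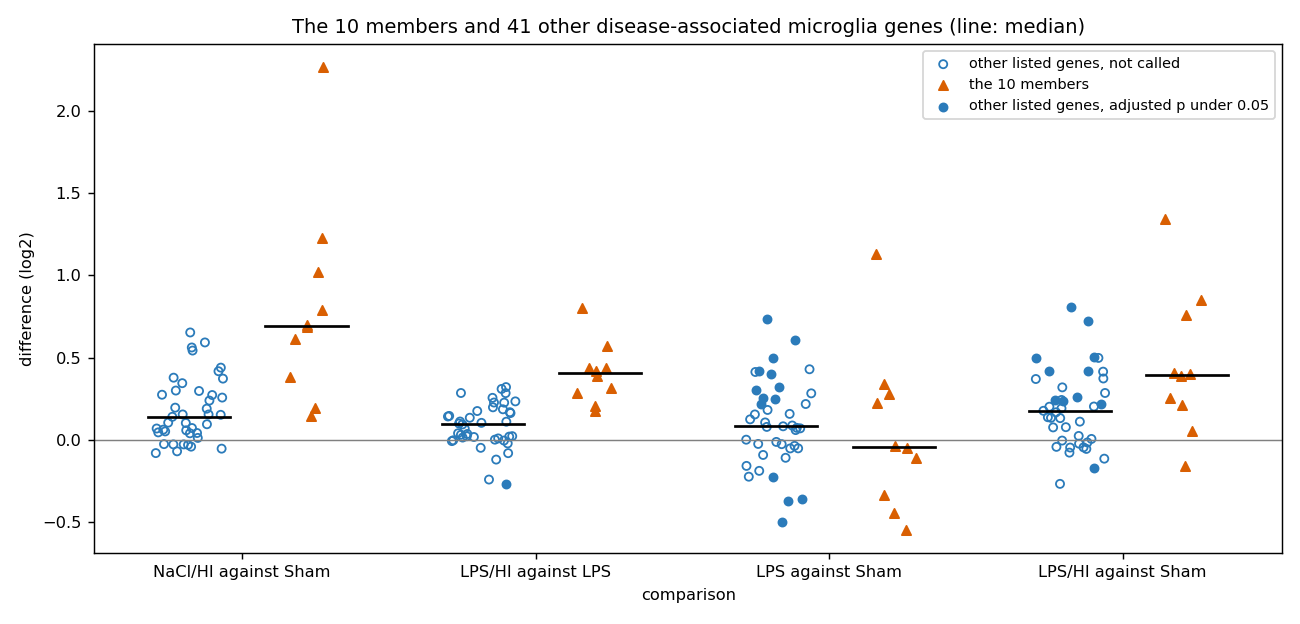
Differences (y axis, log2) in 4 comparisons of the 41 other disease-associated microglia genes (circles, filled where the limma adjusted p is under 0.05) and of the 10 members (triangles), with lines at the medians. The medians for NaCl/HI against Sham are 0.14 and 0.69, and no circle is filled in that comparison.

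Genes linked to the members were followed too, 44 in all. Among them were receptors, binding proteins and substrates, and also relatives of the members, such as other fatty acid carriers and other integrin alpha subunits. In NaCl/HI against Sham the 1 that passed in limma was Fabp3, another fatty acid carrier, which rose by 0.52 (SE 0.08, adjusted p = 0.035), from 6.64 ± 0.03 in Sham to 7.16 ± 0.19 in NaCl/HI (SD, n = 6 each), and it was the only called gene of the table beside Gpnmb. The call was lost in 17 of the 23 fits without 1 sample, with a limma adjusted p of up to 0.166 over the alternatives. It rose in LPS/HI against LPS as well, by 0.43 (SE 0.09, limma adjusted p = 0.0156). Without replicate 4, 7 of the 44 passed in NaCl/HI against Sham beside 2.74% of all genes, all higher. They were Cd44, the osteopontin receptor (1.20, SE 0.22), Fabp3, Igfbp5, Igsf8, Itgal, Itgb2, the partner of CD11c, and Vldlr, a lipoprotein receptor. In LPS/HI against Sham 9 of the 44 passed beside 8.77% of all genes, 7 higher and 2 lower. The lower were Irs1 (-0.23, SE 0.07, limma adjusted p = 0.0333) and Ptgfrn (-0.12, SE 0.04, limma adjusted p = 0.0487, close to the threshold). The higher were led by Cd44, with 0.84 (SE 0.26, limma adjusted p = 0.0442), a call lost in 12 of the 23 fits without 1 sample. Of the binding proteins of IGF1, Igfbp3 fell with LPS by 0.46 (SE 0.13, limma adjusted p = 0.0199) and Igfbp4 by 0.39 (SE 0.11, adjusted p = 0.0185), each lost in 1 of those fits. In LPS/HI against LPS 5 of the 44 passed beside 1.94% of all genes, Fabp3 among them. Igfbp3 rose by 0.54 (SE 0.13), Igfbp5 by 0.43 (SE 0.10) and Angptl4, an inhibitor of lipoprotein lipase, by 0.38 (SE 0.09), and Card9, which acts downstream of dectin-1, fell by 0.20 (SE 0.05). These calls were lost in 8, 7, 11 and 9 of the 23 fits in that order. LPS against Sham called 15 of the 44 beside 17.8% of all genes, 7 higher, led by Itgal (0.55, SE 0.07), and 8 lower, among them the osteopontin-binding integrin subunit Itga9 (-0.31, SE 0.08) and the phagocytic receptor Mertk (-0.32, SE 0.07). For the interaction Igfbp3 (0.75, SE 0.18, limma adjusted p = 0.0489) and Itgal (-0.53, SE 0.09, adjusted p = 0.0157) passed, and the call of Igfbp3 was lost in 18 of the 23 fits.

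Of 18 transcription factors of this programme and of myeloid cells, none passed in NaCl/HI against Sham by limma, with 6 at an unadjusted p under 0.05 beside 14.8% of all genes. Without replicate 4, Tfeb (0.26, SE 0.07), which drives lysosomal genes, Rxra (0.31, SE 0.06) and Nr1h3, the lipid-sensing receptor LXR alpha (0.49, SE 0.12), were higher, beside 2.74% of all genes called. After LPS 3 of the 18 were higher and 2 lower, beside 10.2% and 7.56% of all genes. Cebpb (0.57, SE 0.11), Tfec (0.40, SE 0.08) and Spi1, which encodes PU.1 (0.18, SE 0.05), were higher, and Egr2 (-0.74, SE 0.13) and Bhlhe41 (-0.16, SE 0.05) were lower. In LPS/HI against Sham 3 passed beside 8.77% of all genes. Bhlhe40 rose by 0.31 (SE 0.08), and Egr2 fell by 0.53 (SE 0.13) and Tfe3 by 0.14 (SE 0.04). Without 1 sample the calls of Bhlhe41 and Bhlhe40 were lost in 6 and 4 of the 23 fits and that of Tfe3 in 18. None of the 18 passed in LPS/HI against LPS, LPS/HI against NaCl/HI or the interaction in limma, with 7, 2 and 4 at an unadjusted p under 0.05 beside 15.5%, 10.6% and 15.1% of all genes.

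Markers of other cells that the beads or the tissue could bring along were read beside the members. In NaCl/HI against Sham none of 10 monocyte, 9 border macrophage, 10 neutrophil or 7 oligodendrocyte markers passed in limma, with 2, 2, 0 and 0 at an unadjusted p under 0.05, and none of 15 homeostatic microglial markers did, with 3, beside 14.8% of all genes. The mean over the 10 monocyte markers ran from 8.33 to 8.82 in Sham, 8.65 to 9.001 in LPS, 8.52 to 9.23 in NaCl/HI and 8.68 to 9.34 in LPS/HI, and replicate 4 had the lowest NaCl/HI value. Replicate 4 also had the lowest value of the 6 for the neutrophil markers, 7.09 in a range up to 7.84, and for the oligodendrocyte markers, 7.93 in a range up to 9.96. It was the lowest for the cell cycle markers too, 10.65 in a range up to 10.86. For the border macrophage markers it had the highest value of the 6, 11.69 in a range down to 11.20. For the neutrophil markers Sham ran from 7.26 to 7.76 and LPS/HI from 7.46 to 8.54, and in LPS/HI against Sham 5 of the 10 passed beside 8.77% of all genes, all higher, led in limma by S100a9 (1.18, SE 0.29, adjusted p = 0.0193) and S100a8 (1.11, SE 0.30, adjusted p = 0.0262, lost in 4 of the 23 fits without 1 sample). For the oligodendrocyte markers Sham ran from 7.78 to 8.96, LPS from 7.84 to 8.27 and LPS/HI from 7.92 to 8.99, and Mbp had a mean of 10.71 over all samples. Of the homeostatic markers 8 of 15 passed in LPS against Sham, all lower beside 7.56% of all genes lower, with Crybb1 (-0.83, SE 0.12) and Gpr34 (-0.42, SE 0.12) in front, and their mean in replicate 4, 11.74, lay within the range of the other NaCl/HI samples. Other markers were called between LPS and Sham as well, where Igf1, Lpl and Cd9 were lower and 10.2% of all genes were called higher and 7.56% lower. Of the border macrophage markers 3 of 9 were lower in limma, Lyve1 (-0.83, SE 0.11), Mrc1 (-0.50, SE 0.16, lost in 7 of the 23 fits without 1 sample) and Stab1 (-0.44, SE 0.10), and Cbr2 was higher (0.18, SE 0.04). Neuronal markers were lower for 4 of 6, led by Snap25 (-0.41, SE 0.10), and endothelial markers lower for 3 of 6, led by Esam (-0.30, SE 0.09, lost in 5 of those fits), and higher for 1. The monocyte marker Plac8 was higher (1.17, SE 0.13), 1 of 10 neutrophil markers was higher and 2 were lower, led by Ngp (-1.07, SE 0.23), and 2 of 7 astrocyte markers were higher. Of the oligodendrocyte markers 1 of 7 was higher and 1 lower. All 6 cell cycle markers were higher in LPS than in Sham and all 6 in LPS/HI than in Sham, with medians of 0.67 and 0.44, beside 10.2% and 5.30% of all genes higher, and 0 of 6 passed in NaCl/HI against Sham, with 3 at an unadjusted p under 0.05. None of 5 dendritic cell, 5 oligodendrocyte precursor, 7 astrocyte, 6 neuron, 6 endothelial or 7 fibroblast and mural cell markers passed in NaCl/HI against Sham in limma, with 1, 0, 1, 2, 0 and 2 at an unadjusted p under 0.05. Between LPS/HI and LPS, where Igf1, Lpl and Cd9 were higher, 0, 0, 0, 1, 2 and 2 of them passed beside 1.94% of all genes, all higher. In that comparison the monocyte marker Plac8 was lower in limma (-0.72, SE 0.13), the homeostatic marker Olfml3 higher (0.37, SE 0.07), and the cell cycle markers Birc5 (-0.38, SE 0.09) and Ccnb1 (-0.36, SE 0.09) lower. The neutrophil markers had a median difference of 0.75, with 8 of 10 at an unadjusted p under 0.05 beside 15.5% of all genes, and Mmp9 passed (0.91, SE 0.23). The calls of Mmp9, Birc5 and Ccnb1 were lost in 16, 11 and 15 of the 23 fits without 1 sample. Without NaCl/HI replicate 4, where 7 members were called in NaCl/HI against Sham beside 2.74% of all genes, 4 of these markers passed in limma, all higher. They were S100a4 of the monocyte list (0.55, SE 0.13), Ccr7 of the dendritic cell list (0.55, SE 0.12), Gfap of the astrocyte list (0.91, SE 0.23) and Col1a1 of the fibroblast and mural cell list (0.44, SE 0.11), and no marker of the other lists passed. The part of other cells in the differences of the members was not tested.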

How the data were processed

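RNA of CD11b/c-sorted microglia was sequenced for 23 samples in 4 groups, which were assigned from the sample labels. The submitters' processing notes name FastQC 0.11.9, MultiQC 1.14, kallisto 0.48.0 and DESeq2, with the build mRatBN7.2. Per the study's methods, the authors imported the estimates with tximport, left out genes with fewer than 10 counts, applied the regularised log transformation and removed 3 surrogate variables, which gave the deposited log2 values. Surrogate variables lower the spread within groups and can also change differences between them. No counts were analysed here, so the depth of the libraries is unknown and the number of samples sets the precision. Nothing in the labels ties samples to litters, and the p-values measure the spread between these samples only.

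All 20301 genes were fitted together with limma 3.58.1 in R 4.3.3, with 1 mean per group of all 23 samples and a variance trend. Because 3 variables had already been removed, 16 residual degrees of freedom were used in place of 19. P-values were adjusted by Benjamini and Hochberg over all genes of a comparison, and a gene was called at an adjusted p under 0.05. Unless another test is named, calls and adjusted p-values are from this fit, and "passed" means called. Members and lists were chosen with earlier results of these data known, so the calls of members are a description beside the share of all genes called and no independent test. All 10 members are named, and of each other list and comparison up to 4 called genes higher and 4 lower by size. The genes nearest in pattern are the 5 with the highest and the 3 with the lowest correlation with the mean z-score of the members, and the 3 nearest to Spp1. Of the listed genes Cd36, Cd209a and Cldn5 were not analysed here, and Ank was read as its synonym Ankh. Alternatives were the residual degrees of freedom, the variance trend, blocks for replicate number and library series, a filter on low values, 2 scalings, the groups in the fit, the exact Wilcoxon test, a fold above 2 as well, and each sample left out in turn. The scripts were tested on simulated data. Summaries and plots were made with pandas 2.3.3, numpy 2.4.6, scipy 1.17.1 and matplotlib 3.10.9 under Python 3.11.15.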

Additional observations from a re-analysis of the deposited data

Results flagged for a closer look

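For 4 of the 40 combinations of a member and a group, the lowest sample stood far from the others of its group by Dixon's criterion, which chance alone meets in about 1 in 20. In NaCl/HI these were Gpnmb in replicate 4, at a log2 value of 12.51, and Lpl in replicate 4, at 10.73. In LPS they were Fabp5 in replicate 5, at 8.02, and Itgax in replicate 5, at 9.24.

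The LPS difference of Spp1 took opposite signs without and with HI. Every LPS sample lay above the Sham mean and every LPS/HI sample below the NaCl/HI mean, and the LPS differences differed by -2.06 between the HI and the sham setting. Because Spp1 was chosen with these values known, this is a description. In the fit of all genes Spp1 was not called for the interaction, and it was called without NaCl/HI replicate 4. For Ctsz, which is no member, the LPS difference was smaller with HI by -0.61, with an adjusted p of 0.0121 for the interaction in limma.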

How the results depend on the processing

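The main counts of called members were 1 in NaCl/HI against Sham, 3 in LPS/HI against LPS, 3 in LPS against Sham, 0 in LPS/HI against NaCl/HI, 2 in LPS/HI against Sham and 0 for the interaction of LPS with HI, beside 0.00985%, 1.94%, 17.8%, 0.202%, 8.77% and 1.08% of all genes. Those of the 41 other disease-associated genes were 0, 1, 14, 0, 11 and 1 in the same order. No difference of a called gene named here changed sign under the alternatives run, and the median difference of the members kept its side of 0 under each scaling and block. Counts near the threshold moved, and the cause was not tested.

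With the residual degrees of freedom kept at 19, members called were 5 in NaCl/HI against Sham, 2 in LPS/HI against NaCl/HI and 2 for the interaction, where 0.729%, 1.20% and 3.28% of all genes were called. The other genes then numbered 6 in NaCl/HI against Sham, 3 in LPS/HI against LPS (4.96% of all genes), 2 in LPS/HI against NaCl/HI and 2 for the interaction. Without the variance trend, members were 0 in NaCl/HI against Sham, 1 in LPS/HI against LPS and 1 in LPS/HI against Sham (0, 1.58% and 8.65% of all genes), and other genes 0 in LPS/HI against LPS. In NaCl/HI against Sham, 3 members were called with a block for the library series, 2 with median centring and 2 with quantile normalization (0.0394%, 0.0296% and 0.0493% of all genes), and the last also called 2 of the other genes. Median centring called 2 other genes in LPS/HI against LPS and 1 in LPS/HI against NaCl/HI (2.97% and 0.153% of all genes). Leaving out the lowest 25% of genes called 2 in LPS/HI against LPS, beside 3.13% of the genes kept. Fits of only the 2 groups compared called 1 member in LPS/HI against NaCl/HI and 5 in LPS/HI against Sham (0.665% and 16.9% of all genes). They called 1, 3, 1 and 21 other genes in NaCl/HI against Sham, LPS/HI against LPS, LPS/HI against NaCl/HI and LPS/HI against Sham (0.128%, 3.89%, 0.665% and 16.9% of all genes). The exact Wilcoxon test called 0 members in NaCl/HI against Sham, 0 in LPS/HI against LPS and 4 in LPS/HI against Sham (0, 0 and 9.84% of all genes), and 0 other genes in LPS/HI against LPS. With a fold above 2 as well, members were 0 in LPS/HI against LPS, 0 in LPS against Sham and 1 in LPS/HI against Sham (0.0345%, 0.0690% and 0.0936% of all genes), and other genes 0 in LPS/HI against LPS, LPS against Sham, LPS/HI against Sham and the interaction (0.00985% of all genes for the interaction).

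Replicate numbers are shared between groups, but the labels tie no sample to another, and the 33 pairs of the same number had correlations of deviations from -0.47 to 0.47 with a median of -0.03. A fit with the replicate block called 0 members in LPS/HI against LPS, 1 in LPS against Sham and 1 in LPS/HI against Sham (0.438%, 11.2% and 3.70% of all genes). It called 0, 7 and 0 other genes in LPS/HI against LPS, LPS/HI against Sham and the interaction. For the interaction 0.00985% of all genes were called, and Ctsz had an adjusted p of 0.0769 in limma.

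With each sample left out in turn, members called ranged from 0 to 7, 0 to 3, 1 to 4, 0 to 1, 1 to 4 and 0 to 3 in the order of the main counts, and other genes from 0 to 11, 0 to 3, 10 to 17, 0 to 1, 7 to 15 and 1 to 2. The share of all genes called ranged from 0 to 2.74%, 0.399% to 2.28%, 11.8% to 19.5%, 0.00493% to 0.660%, 3.79% to 12.5% and 0.158% to 2.43% in that order. The counts of 7, 11 and 3 for NaCl/HI against Sham and the interaction were those without NaCl/HI replicate 4. So was the count of 4 members in LPS/HI against Sham, where the other fits called 1 or 2. The median difference of the members ranged from 0.61 to 0.86, 0.31 to 0.48, -0.12 to 0.09, -0.42 to -0.24, 0.31 to 0.43 and -0.34 to -0.08 in that order, so that for LPS against Sham its sign turned on single samples. Weights for libraries were not run, since the weight of LPS/HI replicate 2 did not converge. Without that sample 0 members were called in LPS/HI against LPS and 1 in LPS/HI against Sham, beside 0.591% and 4.16% of all genes. Without LPS/HI replicate 5 the members called were also 0 and 1, beside 0.773% and 3.79%.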
